A study of Homo sapiens with 4 samples.

Results

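The major histocompatibility complex (MHC) on the short arm of chromosome 6 was covered by 127 promoter design regions, of 18008 on the array that held 5 or more probes. A design region is a stretch of DNA that the array tiles with oligonucleotide probes and names as one unit. The 127 regions were chosen by position alone, as all regions whose probes start between 29.7 and 33.5 Mb on chromosome 6. They were split at 31.6 and 32.4 Mb into a class I span of 47 regions, a class III span of 49 and a class II span of 31. These limits belong to the scale of the NCBI36 assembly. The files name no genome build, and no annotation of that build was used here, so regions are given by position and not by gene.

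The arrays compared chromatin precipitated with an anti-HA antibody from HEK293 cells, a human embryonic kidney line, that carry an HA-tagged transcription factor, RPF-1. Each of the 4 arrays set induced cells (48 h in medium depleted of tetracycline, Cy5) against uninduced cells of the same stable line (48 h with tetracycline, Cy3), and both sides were precipitated with the same antibody. The design asks where expression of RPF-1 raised the HA precipitate. Values are log2 ratios of induced over uninduced, centred on the median of each array, so 0 is the level of the middle probe of the array. There was no dye swap and no array without the tagged factor, so a difference between dyes and an effect of induction cannot be told apart. The labels number the induced cells of arrays 2, 3 and 4 as 4, 10 and 13 and the uninduced cells as 3, 7 and 9, and give no number for array 1. They do not say whether these numbers mark separate cultures, so the spread behind each p-value is that of these 4 arrays and may be technical.

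The MHC is among the most gene-dense parts of the human genome. Its class I genes encode the cell surface proteins that present peptides from inside the cell to cytotoxic T cells. The class II genes encode the proteins with which dendritic cells, macrophages and B cells present peptides to helper T cells, and the peptide transporter and immunoproteasome genes lie among them. The class III span holds no antigen-presenting molecules of this kind. It carries complement components, cytokines of the tumour necrosis factor family, heat shock proteins and many housekeeping genes. Classical class I and class II genes have many close relatives and pseudogenes nearby. Whether such relatives account for the probes that match several places was not tested.

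The 127 regions held 2996 probes, 9 to 59 per region with a median of 23. Regions of the standard design length of 2700 bp numbered 93, and 34 were longer, up to 6422 bp. The class III span was the most densely tiled, with 61.2 regions per Mb, against 24.7 in the class I span and 28.2 in the class II span. Each probe carries a number named count, which the files leave undefined and which is taken here to be how many genomic sites match the probe. A probe whose count is 1 is termed single-match here, and any other is termed multi-match. Single-match probes made up 91.3% of the MHC probes and 93.7% of all probes. The share was 90.0% in class I, 89.7% in class III and 95.5% in class II. Array 3 differed from the other arrays in that its ratios rose with probe length, as detailed below, and the span differences that turn on it are also given without it.

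Induced cells gave higher ratios at 27 MHC regions and lower ratios at 3. In the test over all 18008 regions (limma, adjusted p threshold 0.05, n = 4 arrays), the higher ones made up 21.3% of the 127 members, while 13.7% of all regions were higher. The lower ones made up 2.36%, against 13.5% of all regions. The median MHC region had a log2 ratio of 0.14, against 0.00 (-0.0029) for all regions, and 95 of the 127 had a mean above 0 (74.8%, against 49.4% of all regions). Regions above 0 in all 4 arrays numbered 47 (37.0%, against 20.6%), and those below 0 in all 4 numbered 11 (8.66%, against 24.2%). The changes were small. Of the 27 higher regions, 4 reached 0.5 log2 (3.15% of the members in this class against 2.54% of all regions), and none of the lower ones reached -0.5 (0.894% of all regions did).

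With single-match probes alone, 124 MHC regions had 5 or more probes. Of these, 22 (17.7%) were higher and 4 (3.23%) lower, against 11.2% and 14.4% of all 17299 regions tested that way. The counts depended on single arrays. Without array 2, 11 MHC regions were higher (8.66%, against 6.33% of all regions), and without array 4, 8 were (6.3%, against 6.2%). Without array 4, 1 MHC region was lower. The names under which the arrays were deposited carry the mark N39 for arrays 1 and 2 and N44 for arrays 3 and 4. The labels do not say what this mark means, and arrays that share it are called a series here. Arrays 3 and 4, the series N44, called 10 MHC regions higher when taken alone (7.87%, against 10.7% of all regions). Arrays 1 and 2, the series N39, called 20 (15.7%, against 9.82%).

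**Figure D1:**
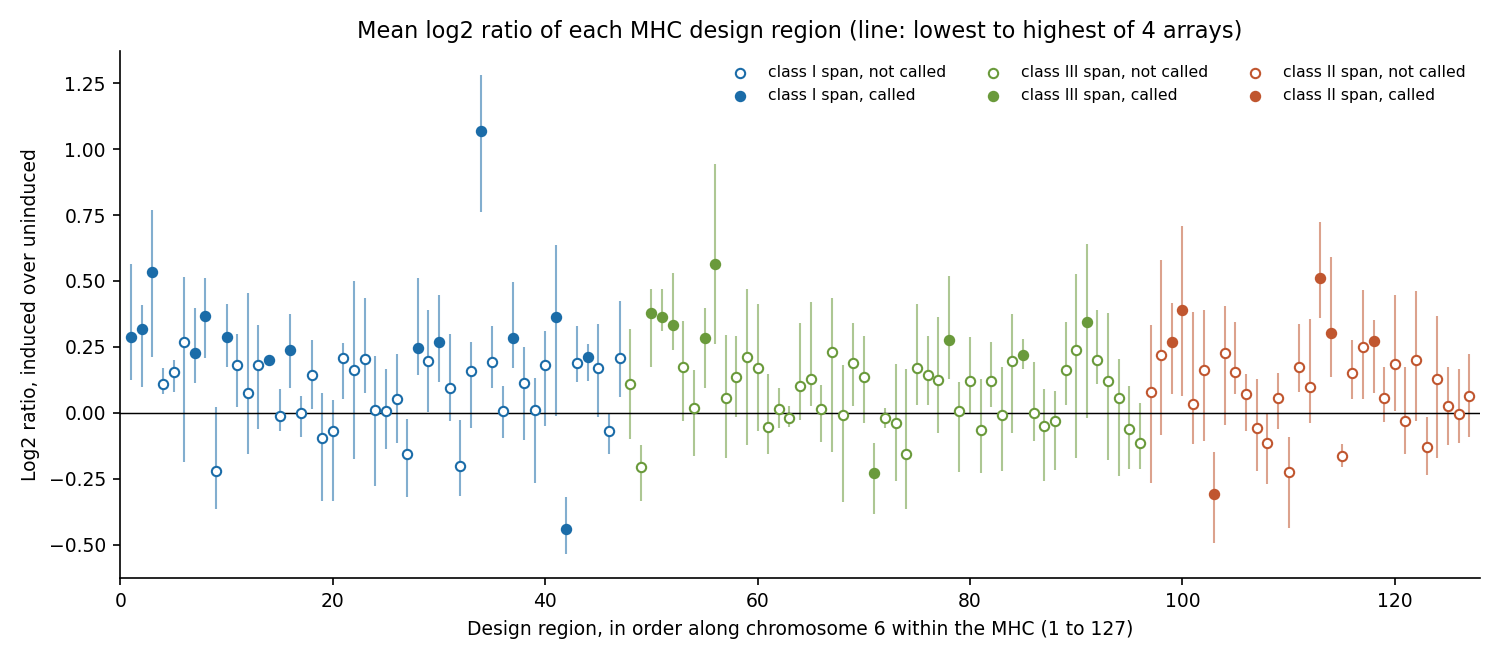
Mean log2 ratio of induced over uninduced for each of the 127 MHC design regions (vertical axis), in their order along chromosome 6 (horizontal axis). Points are means of 4 arrays, lines run from the lowest to the highest array, and filled points passed the limma threshold. The highest point is a class I region at 1.07, and 95 of the 127 means lie above 0.

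The excess over 0 was present in each span. The class I regions had a mean log2 ratio of 0.147 ± 0.032 (SD, n = 4 arrays), with 0.167, 0.160, 0.099 and 0.162 in arrays 1 to 4. The class III mean was 0.103 ± 0.075, and the class II mean was 0.099 ± 0.034. All 3 spans were above 0 in all 4 arrays, which is the most that 4 arrays can show: the exact two-sided sign-flip permutation test over arrays gave p = 0.13, the smallest it allows. With single-match probes the means were 0.130 ± 0.039 in class I, 0.080 ± 0.075 in class III and 0.081 ± 0.036 in class II, and class III was then below 0 in array 3 (-0.025, exact p = 0.25). The class III span varied most, from 0.00064 in array 3 to 0.182 in array 2. In class II, the arrays gave 0.089, 0.145, 0.095 and 0.065.

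Differences between the spans were of the size of the spread between arrays, and with 4 arrays the test could not have passed 0.05. Class I exceeded class III by 0.044 ± 0.050 (higher in 3 of 4 arrays, exact sign-flip permutation p = 0.25) and class II by 0.048 ± 0.046 (4 of 4 arrays, p = 0.13). Without array 3, class I exceeded class III by 0.026. Without the highest class I region, described below, the differences from class III and class II were 0.024 and 0.028. Class III and class II differed by 0.0046 ± 0.067 (3 of 4 arrays, exact p = 1), or by 0.038 without array 3 and -0.0013 to -0.012 without each of the others. Over the 7 differences tested, adjusted p-values were 0.35 or more.

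The whole MHC lay above the rest of chromosome 6 in 3 of the 4 arrays. The other 825 regions of the chromosome had a mean of 0.045 ± 0.051, and the MHC exceeded them by 0.074 ± 0.092 (exact sign-flip permutation p = 0.25, adjusted p = 0.35). This difference was positive in arrays 1, 2 and 4 (0.097, 0.149 and 0.109) and negative in array 3 (-0.060). It stood at 0.049 without array 2 and at 0.118 without array 3. By span, the excess over the other chromosome 6 regions was 0.102 ± 0.082 in class I, 0.059 ± 0.124 in class III and 0.054 ± 0.063 in class II. The exact sign-flip permutation p was 0.25, 0.5 and 0.25. All 3 were positive in arrays 1, 2 and 4 and negative in array 3 (-0.021, -0.119 and -0.025). Without array 3 they were 0.1435, 0.1178 and 0.0802. The 141 regions within 3.8 Mb on either side averaged 0.100 ± 0.062, and 32 of them (22.7%) were higher and 7 (4.96%) lower by the same limma test. The MHC exceeded these flanking regions by 0.018 ± 0.099 (0.073, 0.072, -0.129 and 0.057 in the 4 arrays, exact sign-flip permutation p = 0.75). Without array 3 this difference was 0.067 ± 0.0091, a setting chosen after seeing the data. Against the 17056 regions of the other chromosomes, the difference was 0.110 ± 0.057 and positive in all 4 arrays (exact p = 0.13, the smallest possible).

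Probe length moved with this comparison in array 3. MHC regions had shorter probes (mean 51.5 bases) than the other chromosome 6 regions (52.8). Across all 18008 regions, mean probe length and log2 ratio had a Pearson correlation of 0.435 in array 3 and of -0.241, -0.104 and 0.061 in arrays 1, 2 and 4. These points share their libraries and base composition, so no p is given. After the mean of all single-match probes of the same length was subtracted in each array, the MHC stood at 0.120 ± 0.042 and exceeded the other chromosome 6 regions by 0.059 ± 0.065. Array 3 then gave -0.034 for that difference. The flanking regions, treated in the same way, averaged 0.117 ± 0.037, close to the MHC mean.

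**Figure D2:**
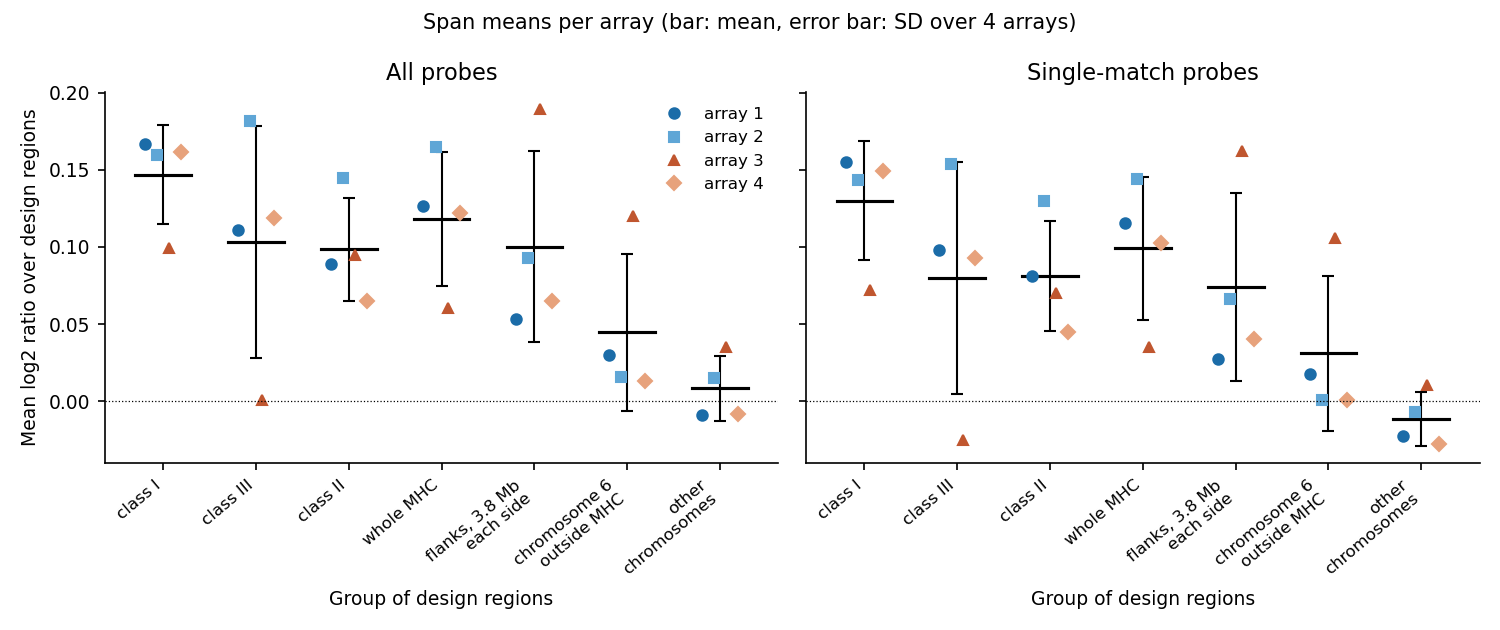
Mean log2 ratio over the design regions of each MHC span, the whole MHC and 3 groups of comparison regions (vertical axis), for all probes and for single-match probes. Symbols are the 4 arrays, horizontal lines their mean and error bars the SD. Array 3 is the lowest array in class I and class III and the highest in the flanks and the other chromosome 6 regions.

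Along the complex, the highest stretch lay at the class I end. Regions from 29.7 to 30.2 Mb, 12 in number, averaged 0.215 ± 0.031, with 0.180, 0.223, 0.253 and 0.204 in the 4 arrays, and 6 of them were higher. The 19 regions from 31.2 to 31.7 Mb, across the border of class I and class III, averaged 0.155 ± 0.066, with 7 higher and 1 lower. In the most crowded window, from 31.7 to 32.2 Mb within class III, 31 regions averaged 0.068 ± 0.063, and 2 were higher and 1 lower. Array 3 was the lowest array in that window, at -0.017. The remaining windows averaged from 0.077 (33.2 to 33.5 Mb in class II, 13 regions, 1 higher) to 0.162 (30.7 to 31.2 Mb, 15 regions, 4 higher). In class II, the 13 regions from 32.7 to 33.2 Mb averaged 0.082 ± 0.043, with 2 higher and 1 lower. Over the whole array, 13.7% of regions were higher and 13.5% lower. The windows hold few regions, so their counts are descriptions only. At the limits of the complex, the last region before it (29661500 to 29664200) was at 0.41 and the first inside it (29703226 to 29705926) at 0.29. The last inside (33493543 to 33496324) was at 0.063 and the next outside (33528133 to 33530833) at 0.18. At the border of class I and class III the regions on either side were at 0.21 and 0.11, and at the border of class III and class II at -0.11 and 0.079.

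The class I span had 14 regions higher and 1 lower of 47 (29.8% and 2.13%, against 13.7% and 13.5% of all regions). The 14 had log2 ratios from 0.20 to 1.07, with a median of 0.29, and 11 of them were also higher with single-match probes alone. The higher regions numbered 9, 5, 15 and 4 without array 1, 2, 3 and 4 (19.1%, 10.6%, 31.9% and 8.51%, against 13.1%, 6.33%, 14.5% and 6.2% of all regions). With arrays 3 and 4 alone they numbered 3 (6.38%), below the 10.7% of all regions. With arrays 1 and 2 alone they numbered 9 (19.1%, against 9.82%). The 32 regions that did not pass the test with all 4 arrays ranged from -0.22 to 0.27.

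The highest MHC region lay in the class I span, at positions 31025337 to 31028037, and ranked 10 of the 18008 regions. It was 2.10-fold higher in induced cells. Its 26 probes averaged 1.19, 1.28, 0.76 and 1.04 in arrays 1 to 4, a mean of 1.07 ± 0.23 (adjusted p = 8.53e-05, limma). All 4 arrays were far above 0, and array 3 was the lowest. The signal was not confined to a part of the region: all 26 probes had a mean above 0, from 0.065 to 1.52, and all 5 bins of 500 bp were higher, between 0.98 and 1.22. Of the probes, 16 match several places, with counts up to 15. The 10 single-match probes averaged 1.00 ± 0.20 (1.04, 1.17, 0.71 and 1.07). The 8 probes with counts of 2 to 4 averaged 1.14 ± 0.24, and the 8 with counts of 7 to 15 averaged 1.09 ± 0.29. Probes of all 3 kinds were therefore at levels that differed by less than the spread of the arrays. It was the only MHC region that passed the test against a minimum change of 0.5 log2.

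The second highest class I region, at 29730587 to 29733287, had single-match probes only. The 4 arrays gave 0.21, 0.77, 0.50 and 0.65, a mean of 0.53 ± 0.24 (adjusted p = 0.003, limma). Array 1 was the lowest, and all were above 0. The signal was high in 3 neighbouring bins (0.50, 1.11 and 0.72), while the other 2 bins, at 0.23 and 0.11, did not pass the test.

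The region at 30048670 to 30051370 followed with 0.37 ± 0.13 (0.42, 0.51, 0.32 and 0.21 in the 4 arrays; adjusted p = 0.0065, limma). The region at 29708339 to 29711039 had 0.32 ± 0.15, with array 3 at 0.098 and the others between 0.36 and 0.41. At 30140767 to 30143467 the mean was 0.29 ± 0.10, and the arrays spanned 0.17 to 0.41. The last 2 lost the call when an array was left out (adjusted p = 0.073 without array 2 and 0.090 without array 4 for the region at 29708339, and 0.057 without array 2 for that at 30140767, limma). A further class I region, at 31245932 to 31248632, passed the test with a higher mean than these last 2 (0.36 ± 0.28, adjusted p = 0.020, limma). It was not among those named by the rule, which asks for 1 sign in all 4 arrays, and is given here with its values known. Array 3 stood at -0.013, and the others at 0.48, 0.64 and 0.36.

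One class I region was lower, at 31271315 to 31274015. It gave -0.32, -0.54, -0.52 and -0.39 in the 4 arrays, a mean of -0.44 ± 0.10 over 10 probes (adjusted p = 0.0025, limma), which is 1.36-fold lower. It was the lowest of all 127 members. The 8 single-match probes gave -0.41 ± 0.07. Only part of this region, from 31272715, was covered by probes, and 2 of its 3 bins were lower.

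In the class III span, 8 regions were higher and 1 lower of 49 (16.3% and 2.04%, against 13.7% and 13.5% of all regions), and the 40 others ranged from -0.21 to 0.24. The higher share is near that of all regions. It was 3 regions (6.12%) without array 2 or without array 4, where 6.33% and 6.2% of all regions were higher, 6 (12.2%, against 13.1%) without array 1 and 11 (22.4%, against 14.5%) without array 3. The 5 highest regions with 1 sign in all 4 arrays lay between 31.6 and 31.7 Mb, at the end of the span next to class I, and held single-match probes only. The region at 32251377 to 32256020, further along the span and named here with its values known, passed the test at 0.34 ± 0.27 (adjusted p = 0.025, limma), above the last 2 of these 5. Its arrays gave 0.36, 0.64, -0.018 and 0.39, and 5 of its 9 bins were higher.

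The region at 31694375 to 31697075 was the highest of class III, with 0.56 ± 0.31 over 12 probes (adjusted p = 0.0041, limma). Its arrays fell apart by series: arrays 1 and 2 gave 0.94 and 0.68, and arrays 3 and 4 gave 0.26 and 0.37. The region at 31621150 to 31624806 had 0.47, 0.47, 0.18 and 0.39 (mean 0.38 ± 0.14, adjusted p = 0.0061, limma), with 3 of its 7 bins higher. The region at 31645871 to 31648571 had the narrowest spread of the 5, with 0.32, 0.31, 0.47 and 0.36 (mean 0.36 ± 0.07, adjusted p = 0.0047, limma). These 3 regions kept their call whichever array was left out. The region at 31621150 lost it with arrays 3 and 4 alone (adjusted p = 0.067, limma). That at 31645871 lost it with arrays 1 and 2 alone and with medians over probes (adjusted p = 0.0524 and 0.0505, limma).

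The neighbouring region at 31649128 to 31651828, which starts within 1 kb of the one just named, had 0.33 ± 0.14, and the region at 31688811 to 31692267 had 0.28 ± 0.14. Both lost the call without array 2 and without array 4 (adjusted p from 0.057 to 0.13, limma). In both, a single bin was higher, at 0.54 and 0.86. The lower class III region, at 31882222 to 31884922, was at -0.23 ± 0.13 (adjusted p = 0.041, limma), with -0.28, -0.38, -0.14 and -0.11 in the 4 arrays. It held no bin that passed the test and lost its call without array 1, 2 or 4 (adjusted p from 0.093 to 0.178).

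The class II span had 5 regions higher and 1 lower of 31 (16.1% and 3.23%, against 13.7% and 13.5% of all regions), and 25 that did not pass the test, from -0.23 to 0.25. This higher share too is near that of all regions. It was 3 regions (9.68%, against 6.33%) without array 2 and 1 region (3.23%, against 6.2%) without array 4. The highest was at 33084867 to 33087567. Its 22 single-match probes averaged 0.36, 0.72, 0.40 and 0.57 in the 4 arrays (mean 0.51 ± 0.17, adjusted p = 0.0021, limma). Bins were higher along most of its length, 4 of 5, with the largest value (0.84) in the first 450 bp. It was the one class II region that stayed called without each array in turn.

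The region at 32605484 to 32608184 came next at 0.39 ± 0.30, and here the series of arrays differed: arrays 1 and 2 gave 0.065 and 0.21, and arrays 3 and 4 gave 0.71 and 0.58. Of its 13 probes, 9 match several places. These averaged 0.56, while the 4 single-match probes averaged 0.016. The call was lost without array 4 (adjusted p = 0.117, limma).

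The region at 33148856 to 33152237 mixed directions. Its mean was 0.30 ± 0.20, with 4 bins higher (0.48 to 0.99) and 2 lower (-0.51 and -0.69) among 7. Array 3, at 0.59, was the highest, and the call was lost without array 3 or array 4 (adjusted p = 0.070 and 0.099, limma). The regions at 33345629 to 33349840 and 32513424 to 32516124 had 0.27 ± 0.13 and 0.27 ± 0.15. Both were above 0 in all 4 arrays, and both lost the call without array 2 or array 4, the first also without array 1 (adjusted p from 0.063 to 0.138, limma).

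The lower class II region lay at 32741919 to 32744619. The arrays gave -0.25, -0.49, -0.15 and -0.33, a mean of -0.31 ± 0.14 over 23 single-match probes (adjusted p = 0.015, limma). The difference came from the first part of the region, where the bin at 32742419 to 32742868 was at -0.78 ± 0.17. The call of the whole region was lost without array 2 or array 4 (adjusted p = 0.085 and 0.084, limma). Of the 19 named regions that passed the test, 8 kept their call whichever array was left out, and 11 lost it at least once, 9 without array 2 and 10 without array 4.

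**Figure D3:**
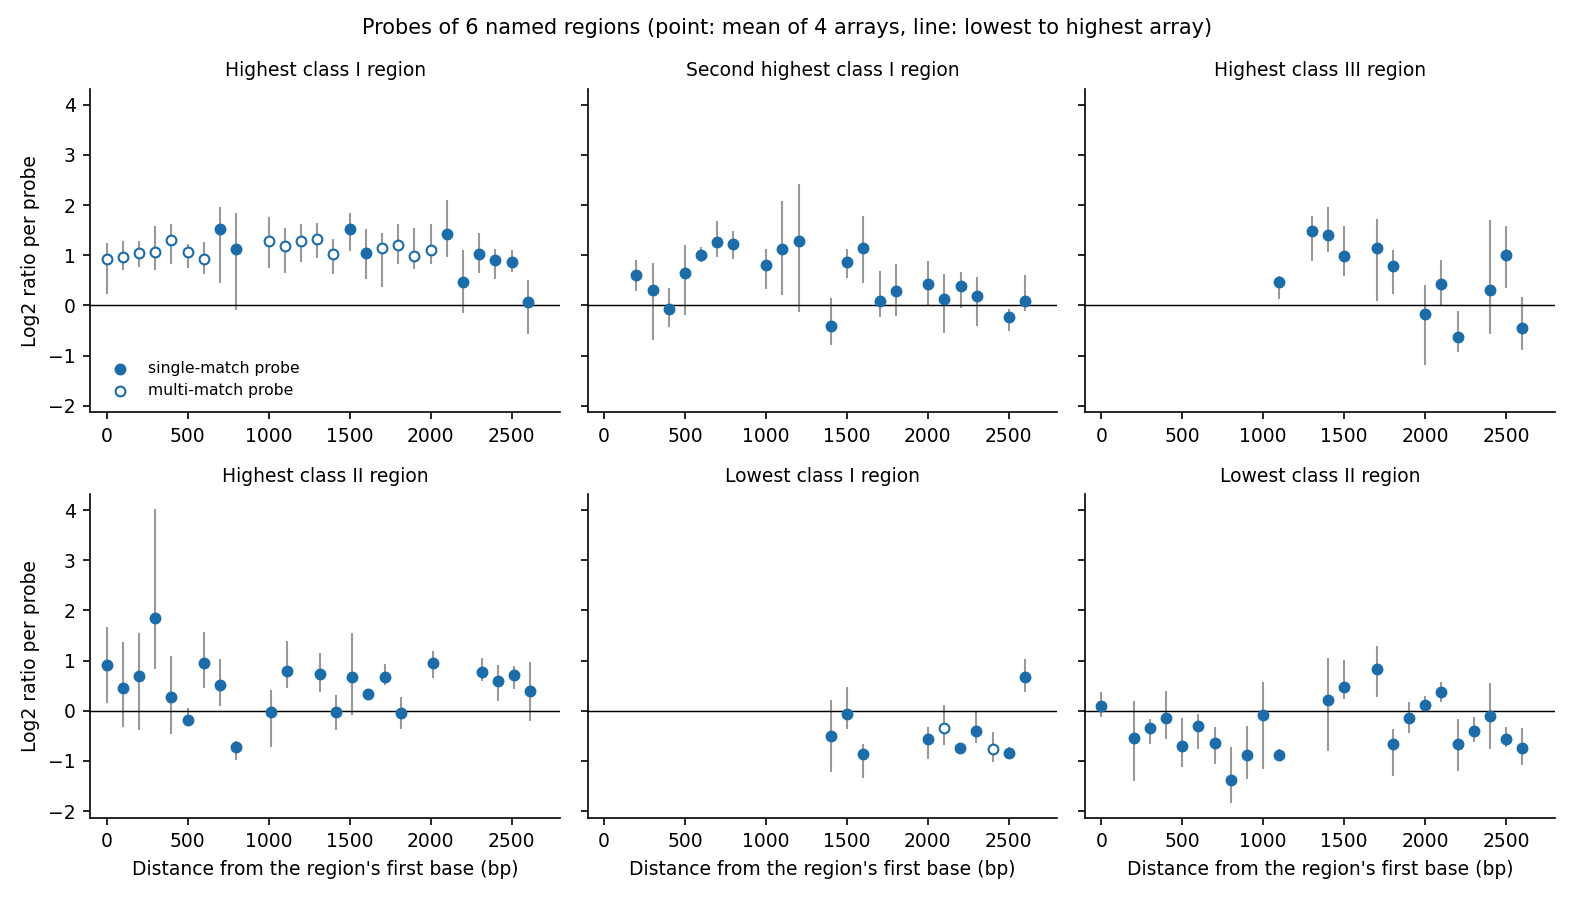
Log2 ratio of each probe (vertical axis) against its distance from the first base of its design region (horizontal axis) for 6 named MHC regions. Points are means of 4 arrays, lines run from the lowest to the highest array, and open points are multi-match probes. In the highest class I region all 26 probes have means above 0, while in the other regions probes on both sides of 0 lie beside each other.

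Within the regions, bins of 500 bp with 3 or more probes were tested in the same way over the whole array. Of 614 MHC bins, 147 (23.9%) were higher and 54 (8.79%) lower, against 17.0% and 16.4% of all 77324 bins (limma, adjusted p threshold 0.05). With single-match probes the counts were 124 (22.1%) and 57 (10.2%) of 560, against 15.4% and 17.2% of all bins. A high share of higher bins was not particular to the MHC. In the flanking regions within 3.8 Mb, 161 of 614 bins (26.2%) were higher and 83 (13.5%) lower. With single-match probes these flank counts were 147 (25.1%) and 87 (14.9%) of 585. Without array 2, 90 MHC bins (14.7%, against 11.8% of all bins) were higher and 32 (5.21%, against 10.3%) lower. Without array 4, 95 (15.5%, against 12%) were higher and 34 (5.54%, against 9.84%) lower, and without array 1, 35 (5.7%, against 10.7%) were lower. By span, 63 of 220 class I bins (28.6%), 48 of 238 class III bins (20.2%) and 36 of 156 class II bins (23.1%) were higher. The lower bins numbered 17, 18 and 19 (7.73%, 7.56% and 12.2%). Without array 2 the higher bins of the 3 spans were 36, 31 and 23 (16.4%, 13% and 14.7%, against 11.8% of all bins). The lower ones were 7, 10 and 15 (3.18%, 4.2% and 9.62%, against 10.3%). Without array 4 the higher bins were 37, 34 and 24 (16.8%, 14.3% and 15.4%, against 12% of all bins). The lower ones were then 10, 13 and 11 (4.55%, 5.46% and 7.05%, against 9.84%). Without array 1 the higher bins were 39, 34 and 29 (17.7%, 14.3% and 18.6%, against 12.6% of all bins). The lower ones were then 11, 12 and 12 (5%, 5.04% and 7.69%, against 10.7%). Higher bins occurred in 84 of the 127 regions and lower bins in 43, and 22 regions held both kinds. In 1 region, that at 31025337, every bin was higher. Such counts of regions were not made over the whole array, so they describe the MHC and cannot be called unusual.

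Several narrow differences lay in regions whose mean did not pass the test. In class II, the bin at 33278474 to 33278923 was at 0.87 ± 0.12 (0.84, 1.03, 0.85 and 0.75; adjusted p = 0.00038, limma), while its region, the longest of the MHC (33274474 to 33280896), averaged 0.15. The class I bin at 30289635 to 30290084 was at -0.77 ± 0.30 in a region with a mean of -0.014. In the class III region at 31739435 to 31743342, with a mean of 0.21, the bin at 31741435 to 31741784 was at -0.62 ± 0.16.

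The other leading higher bins lay in called regions. Those of class III were at 31695475 to 31695924 (1.08 ± 0.22) and at 31622654 to 31623103 (0.99 ± 0.57). The second of these was carried unevenly, with 1.76 in array 1 and 0.39 in array 3, and stood at 0.74 without array 1. In class II, the bin at 33150956 to 33151305 was at 0.99 ± 0.32. Further lower bins lay at 30134814 to 30135275 in class I (-0.76 ± 0.29), at 32056112 to 32056561 in class III (-0.57 ± 0.09) and at 32914536 to 32914885 in class II (-0.71 ± 0.10). The bin at 32056112 held 2 single-match probes of 5. Its region, at 32055612 to 32058312, averaged -0.0087 ± 0.16 over all 26 probes. There the 19 multi-match probes averaged 0.10, and the 7 single-match probes -0.31 ± 0.10, a lower call (adjusted p = 0.011, limma). All 12 bins named by the rule kept their call whichever array was left out, the largest adjusted p being 0.021 (limma). The rule had picked them as the most extreme called bins of these same arrays, which favours this outcome. With arrays 3 and 4 alone, the lower bins at 30289635, 31741435 and 32056112 lost the call (adjusted p = 0.0586, 0.0582 and 0.0603, limma).

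Multi-match probes gave higher ratios than the single-match probes beside them. The MHC held 261 multi-match probes, in 44 of the 127 regions. In the 26 regions with at least 3 probes of each kind, the multi-match probes averaged 0.340 and the single-match probes 0.097. The difference was 0.243 ± 0.043, with 0.256, 0.278, 0.257 and 0.181 in the 4 arrays (exact sign-flip permutation p = 0.13, the smallest possible), and 23 of the 26 regions showed this direction. It was not particular to the MHC. In the 1326 such regions elsewhere on the array, multi-match probes exceeded single-match probes by 0.291 ± 0.042, in 77.4% of the regions. The MHC difference was lower than this by a margin within the spread of the arrays (-0.048 ± 0.051, exact sign-flip permutation p = 0.25).

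Of the 9 MHC regions with more multi-match than single-match probes and at least 3 of each, 8 showed this direction, with differences from -0.077 to 0.54. In class III, the region at 32088349 to 32091049 held 1 single-match probe of 25, and that at 32111860 to 32114560 held 3 of 25. Their means were 0.19 ± 0.21 and 0.22 ± 0.05. The second passed the test (adjusted p = 0.036, limma), but not with any of the 4 arrays left out (adjusted p from 0.058 to 0.154). In class I, the region at 31347334 to 31350034 had a mean of 0.19 ± 0.10 over 25 probes, of which 14 match several places. Those 14 averaged 0.36, and the 11 single-match probes averaged -0.028 ± 0.041. The class II region at 32665036 to 32667759, with 8 multi-match probes of 23, averaged 0.034 ± 0.234 and had 0.38 in array 3 against -0.12 to -0.053 in the other arrays. In the region at 31025337, described above, single-match probes were high as well.

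**Figure D4:**
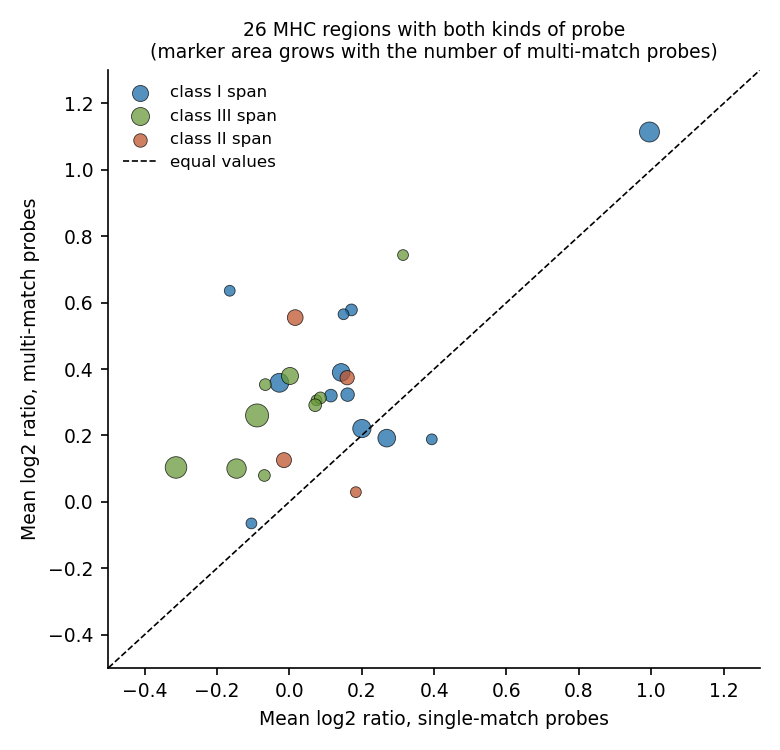
Mean log2 ratio of multi-match probes (vertical axis) against that of single-match probes (horizontal axis) in the 26 MHC regions with at least 3 of each. Each point is the mean of 4 arrays, coloured by span, and 23 points lie above the dashed line of equal values.

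The 4 arrays ranked the MHC regions in a partly shared order. Across the 127 regions, the 6 pairs of arrays had Pearson correlations from 0.265 to 0.697 with a median of 0.543, and Spearman correlations from 0.174 to 0.575. Over all 18008 regions the Pearson correlations ran from 0.378 to 0.731. Neighbouring MHC regions at most 10000 bp apart, 48 pairs, had a Pearson correlation of 0.153 between their means, and 30 of the pairs had the same sign. Over the whole array the correlation was 0.264 in 2045 such pairs, of which 1193 had the same sign. With 74.8% of the MHC means above 0, many pairs share a sign whether or not neighbours are alike. Regions share their arrays, so these values are descriptions without a p. Longer design regions and those of 2700 bp did not separate, with 0.116 ± 0.082 for the 34 longer ones and 0.119 ± 0.032 for the 93 others (difference -0.0028 ± 0.060, exact sign-flip permutation p = 1).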

How the data were processed

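The authors deposited, for each of 4 arrays, the log2 ratio of the 635 nm to the 532 nm signal of 386230 probes. NimbleScan wrote it and gave a biweight mean (-1.05 to -0.586), per the file headers. Deposited medians lie near 0, so that mean is read as already subtracted. The base of the logarithm was taken as 2. The labels and headers name no NimbleScan version, background correction or assembly. Cells were fixed with 1% formaldehyde for 10 min, per the labels' protocols. Ratios had standard deviations of 0.698 to 0.752 log2. No depth applies to arrays, and their number limits the precision. No 2 files repeat each other (at most 0.731% equal values in a pair).

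Each array was centred on its median. Probe means per design region (at least 5 probes) and per 500 bp bin (at least 3 probes) were tested against 0 over the whole array. The test was limma 3.58.1 in R 4.3.3 (a single intercept, empirical Bayes, two-sided, Benjamini-Hochberg, threshold 0.05). It was first run on simulated data with independent noise. Such data lack trends across an array, such as that with probe length, so the run does not cover them. Span means were compared within arrays by exact sign-flip permutation, whose smallest p with 4 arrays rounds to 0.13. Regions were named as the 5 highest and 4 lowest per span that passed the test with 1 sign in all arrays, plus the 2 per span with the largest share of multi-match probes. Bins were named as the 2 highest and 2 lowest per span by the same rule, at most 1 per region. The members, lists and tests were chosen with earlier results of these data known. Gene lists were not analysed here, for want of an annotation on the scale of the files. Alternatives covered centring, scaling, quantile normalization, medians, single-match probes, probe length, limma settings, bin sizes, borders and leaving out arrays.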

Additional observations from a re-analysis of the deposited data

Results flagged for a closer look

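Among 55 values checked with Dixon's test over their 4 arrays, 7 had 1 array beyond the 95% critical value, where chance gives about 1 in 20, or 3. In all 7 the outlying array was array 3. For the class I mean it gave 0.099, and the others 0.160 to 0.167. For the other chromosome 6 regions it gave 0.120 against 0.0127 to 0.0296, and for the difference between them -0.0208 against 0.137 to 0.149. In the region at 29708339 array 3 stood at 0.0975 (others 0.36 to 0.409), and in that at 33345629 at 0.0749 (others 0.312 to 0.354). At 32665036, a region with multi-match probes, it stood at 0.383 (others -0.12 to -0.053). In the bin at 31026337 to 31026787 of the highest region it gave 0.768 (others 1.32 to 1.41).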

How the results depend on the processing

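The settings without the highest class I region, and with flanking regions as reference but without array 3, were chosen after seeing the data. The percentage of MHC regions that were higher exceeded that of all regions in 16 of 17 settings (the exception was arrays 3 and 4 alone), and the percentage lower was under it in 17 of 17. For bins this held in 19 of 19 settings in either direction. Higher MHC regions numbered 10 with arrays 3 and 4 alone (7.87%, against 10.7% of all regions) and 46 with array weights (36.2%, against 19.2%). In tests against a change of at least 0.5 log2 there was 1 (0.787%, against 0.0833%). With an array left out there were 8 (6.3%, against 6.2%) to 33 (26%, against 14.5%). Lower MHC regions numbered 5 with the array series as covariate (3.94%, against 15.2% of all regions). They also numbered 5 with scaling by the median absolute deviation and with values as deposited (3.94%, against 13.8% in both). There were 6 after subtraction of the probe length means (4.72%, against 15.5%) and 7 with trend and robust moderation (5.51%, against 17.6%). Array weights gave 8 (6.3%, against 20.3%), and that minimum change gave 0 (against 0.0777%). With an array left out there were 1 (0.787%, against 4.44%) to 4 (3.15%, against 11.1%). Higher bins numbered 63 with arrays 3 and 4 alone (10.3%, against 8.83% of all bins) and 87 with at least 5 probes per bin (24%, against 15.9%). The minimum change gave 3 (0.489%, against 0.229%). With an array left out there were 90 (14.7%, against 11.8%) to 158 (25.7%, against 15.9%). Lower bins numbered 25 with 1000 bp bins (6.39%, against 15.1% of all bins) and 29 with at least 5 probes (8.01%, against 18.1%). There were 34 with arrays 1 and 2 alone (5.54%, against 13.2%) and 16 with arrays 3 and 4 alone (2.61%, against 6.03%). The minimum change gave 0 (against 0.167%). With an array left out there were 32 (5.21%, against 10.3%) to 46 (7.49%, against 15.4%). Fewer bins were tested with 1000 bp bins or 5 probes.

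The difference of class III and class II, at 0.0046, turned to -0.0203 with arrays 3 and 4 alone, -0.0156 with borders 100 kb higher, -0.00511 with medians over probes, -0.00762 after subtraction of the probe length means and -0.00137 with single-match probes, and ran from -0.0118 to 0.0376 with an array left out. Class III minus the other chromosome 6 regions was -0.00647 with arrays 3 and 4 alone, and class II minus the flanking regions was -0.00175. All other span means and differences kept their direction in every setting run, where 4 arrays cannot pass a threshold of 0.05. The multi-match difference was 0.231 to 0.264 with an array left out. Of the named regions, that at 31347334 was at -0.0275 with single-match probes. That at 32665036 was at -0.0148 with single-match probes, -0.015 with array weights, -0.0863 with arrays 1 and 2 alone and -0.0823 without array 3, and otherwise up to 0.0852 with an array left out. For settings that kept the bins and arrays, causes were not tested. Every array hybridised both conditions together, so its ratio is itself the paired value, and no further pairing was added to the tests. Signal over background is unknown here.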
